A study of Mus musculus with 8 samples.

Results

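Astrocyte genes were described in medial prefrontal cortex of mice, in 4 libraries that carry the label Ino80e overexpression and 4 that carry the label wild type. The 37 genes were given by symbol and fall into 18 homeostatic and 19 reactive genes, out of 54446 Ensembl identifiers in the count table, and each symbol matched a single identifier in GENCODE M21. The series concerns Ino80e, whose product belongs to the nucleosome-remodelling complex INO80, and its design text describes adeno-associated virus placed by stereotaxic injection into this cortex to alter Ino80e expression. Poly(A) RNA was sequenced as strand-specific libraries of 44762378 to 60490153 counts. Strain, age, the promoter of the viral construct, whether wild-type mice received a control virus, and whether each library came from a separate mouse are not stated in the labels, so every p-value rests on library-to-library spread that may be technical. If wild-type mice had no injection, any effect of injection or virus cannot be told apart from that of Ino80e.

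Astrocytes are the glial cells that take up synaptic glutamate and potassium, move water and ions at vessel walls, and pass metabolites to neurons. Genes for these tasks are called homeostatic. After injury, infection or inflammation, astrocytes turn on a further set, called reactive, led by the intermediate filament gene Gfap. Much of the reactive set was defined in mice given lipopolysaccharide or subjected to stroke, and several of its genes are also expressed by microglia, vessel cells and fibroblasts.

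Ino80e itself stood at 74.1, 23.4, 23.3 and 45.045 CPM in overexpression replicates 1 to 4, against 22.3, 19.5, 25.5 and 20.7 CPM in wild-type replicates 1 to 4. CPM is the count scaled to library size by edgeR, with TMM scaling factors, and is the unit of every level below. Overexpression replicates 2 and 3 lay inside the wild-type range, and the difference did not pass (log2 fold change 0.91, SE 0.42, edgeR adjusted p = 0.51; exact two-sided permutation p = 0.114, where 0.0286 is the smallest possible). Every direction below is therefore that of the libraries labelled overexpression. The choroid plexus markers, 8 genes led by the transthyretin gene Ttr, also set libraries apart. They summed to 18.9, 17.8, 111 and 15.2 CPM in overexpression replicates 1 to 4, against 16.6, 9.35, 111 and 1136 CPM in wild-type replicates 1 to 4.

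The homeostatic genes were at closely similar levels in both groups. Together they summed to 10178 ± 594 CPM in the libraries labelled overexpression and 10223 ± 687 CPM in wild type (SD, n = 4 each). The largest parts of these sums were Slc1a2, at 4034 and 4251 CPM on average in the same groups, and Glul, at 1868 and 1808 CPM. None of the 18 passed the edgeR threshold of an adjusted p under 0.05, none had an unadjusted p under 0.05, and none passed with DESeq2 or limma-voom. Over all 17636 genes tested, 0.034% passed the adjusted threshold, 0.0113% in the higher direction. Their median log2 fold change was 0.023, with 9 above 0 and 9 below, beside a median of 0.0016 over all genes tested. Each of the 18 95% intervals lay within 0.866-fold to 1.22-fold, so larger differences are outside the interval of any single gene. In bulk tissue, fewer astrocytes and less RNA per astrocyte cannot be told apart.

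Per kilobase of exon, the homeostatic genes spanned 8.18 CPM per kb for Sox9 to 544 CPM per kb for Glul in wild type. Glul, the glutamine synthetase that turns glutamate into glutamine, had 562 ± 30.9 CPM per kb in the libraries labelled overexpression and 544 ± 45.5 CPM per kb in wild type. Slc1a2, the main glutamate transporter of astrocytes, came next with 307 ± 22.6 CPM per kb and 324 ± 29.5 CPM per kb in the same groups. Clu, which encodes the secreted chaperone clusterin, and Aldoc, the brain aldolase, followed in wild type at 253 ± 10.5 and 249.98 ± 20.6 CPM per kb, which do not differ beyond their spread. All 18 genes were measured well above the low-count filter, including the defining markers Aqp4, Slc1a2 and Aldh1l1. The exons of Slc1a2, Aldh1l1, Fgfr3 and Glul overlap those of other annotated genes, so reads may be shared with those neighbours, since the strand setting of the counting is not given.

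**Figure D1:**
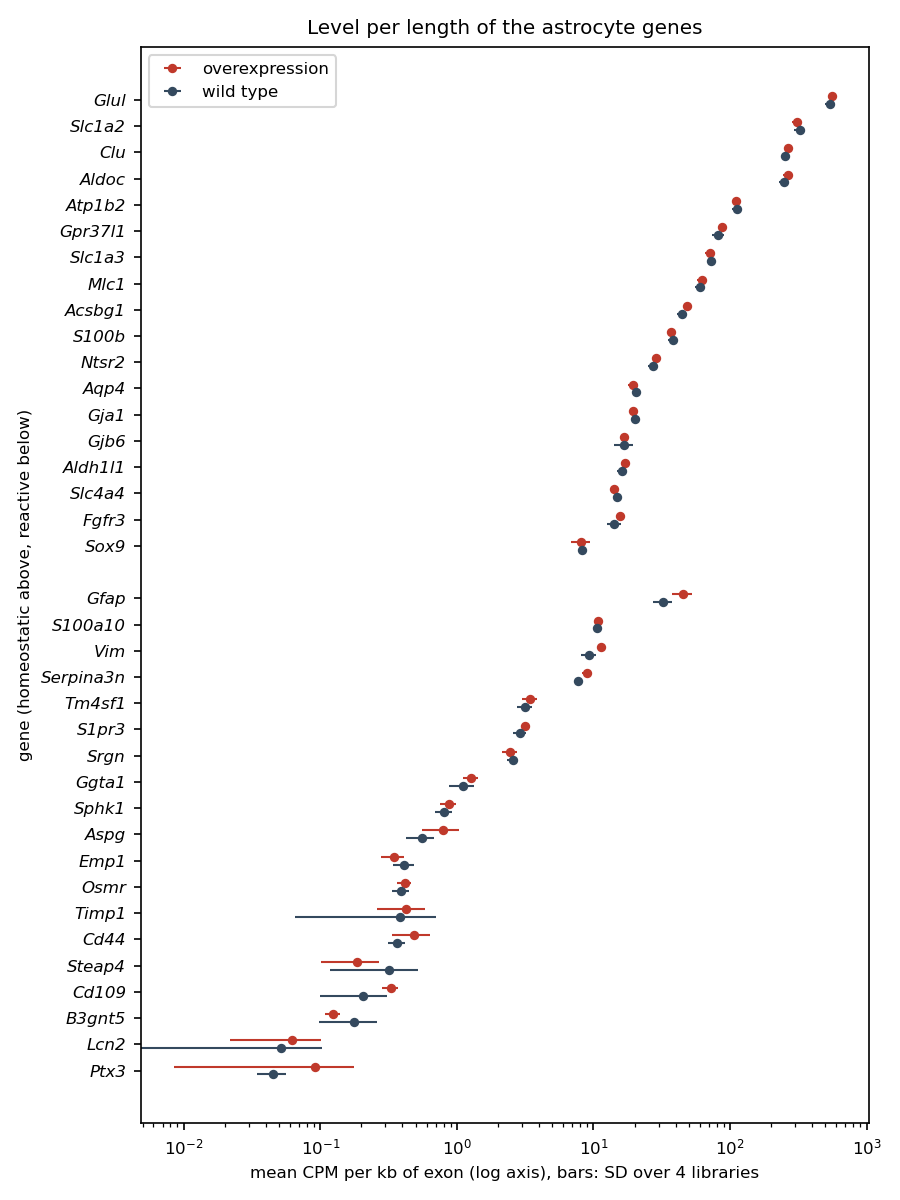
Mean level of each of the 37 genes in CPM per kb of exon on a log axis, for the libraries labelled overexpression (red) and wild type (dark blue), with bars of SD over 4 libraries. Homeostatic genes run from 544 CPM per kb for Glul to 8.18 for Sox9 in wild type, while most reactive genes other than Gfap lie lower, and the wild-type bar of Lcn2 leaves the axis because its SD is as large as its mean.

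Transporters and channels showed no difference beyond the spread. Slc1a2 had 4396, 4144, 3868 and 3728 CPM in overexpression replicates 1 to 4, against 4019.6, 4672, 4473 and 3838 CPM in wild-type replicates 1 to 4. The groups overlapped throughout, and the log2 fold change was -0.08 (SE 0.062, edgeR adjusted p = 0.68). The second glutamate transporter gene Slc1a3 averaged 613 ± 53.0 CPM in the libraries labelled overexpression and 616 ± 36.3 CPM in wild type (SD, n = 4 each). Aqp4, the water channel of astrocyte endfeet, had 127, 133, 110.0 and 119 CPM in overexpression replicates 1 to 4, against 126, 129, 136 and 121 CPM in wild-type replicates 1 to 4. Of these, overexpression replicate 3 was the lowest. The sodium bicarbonate cotransporter gene Slc4a4 stood at log2 -0.07 (SE 0.053), the sodium pump subunit gene Atp1b2 at -0.0093 (SE 0.056), and Mlc1, a membrane protein of endfeet, at 0.053 (SE 0.058).

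The connexin genes of astrocyte gap junctions were likewise level. Gja1 (connexin 43) had 196, 209, 195 and 194 CPM in overexpression replicates 1 to 4, against 198, 211, 226 and 197 CPM in wild-type replicates 1 to 4. Gjb6 (connexin 30) averaged 45.1 ± 1.07 CPM in the libraries labelled overexpression and 45.1 ± 7.16 CPM in wild type (SD, n = 4 each). The wild-type libraries spread more, between 37.4 CPM in replicate 1 and 54.6 CPM in replicate 3.

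All 4 metabolic genes and all 3 receptor genes had log2 fold changes above 0, none of which passed, where 50.5% of all genes tested were above 0. In the other roles most were below 0. These were 5 of 6 transport and channel genes, 2 of 2 gap junction genes and 2 of 3 transcription, calcium-binding and secretion genes. Fgfr3, a fibroblast growth factor receptor, had the largest, with 120.4, 111, 114 and 103 CPM in overexpression replicates 1 to 4, against 103, 94.5, 117 and 91.4 CPM in wild-type replicates 1 to 4 (log2 0.14, SE 0.070, edgeR adjusted p = 0.48). Wild-type replicates 1 and 3 lay inside the range of the libraries labelled overexpression. Acsbg1, an acyl-CoA synthetase, stood at log2 0.11 (SE 0.058). Aldh1l1, the folate enzyme used as a general astrocyte marker, had 84.4, 76.2, 75.4 and 74.2 CPM in overexpression replicates 1 to 4, against 69.2, 76.3, 80.7 and 68.1 CPM in wild-type replicates 1 to 4. Transcripts of most of these genes are rich in GC, with medians of 56.4% for the receptors and 53.1% for the metabolic genes. The median over the 18 homeostatic genes was 50.7%, and Glul lay below it at 49.2%. With each library corrected for GC content, Fgfr3 stood at log2 0.06 and Acsbg1 at 0.04, and the 18 genes ranged between -0.045 and 0.063. Aldoc went from 0.092 to 0.063 with the correction, and Glul from 0.047 to 0.053.

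Sox9, the transcription factor that specifies astrocytes, averaged 33.6 ± 5.27 CPM in the libraries labelled overexpression and 33.8 ± 0.976 CPM in wild type (SD, n = 4 each). Its spread lay in the first of these groups, at 38.6, 37.2, 31.0 and 27.4 CPM in replicates 1 to 4. S100b, a calcium-binding protein, stood at log2 -0.034 (SE 0.061) and Clu at 0.065 (SE 0.047). The orphan receptor gene Gpr37l1 stood at 0.09 (SE 0.064) and the neurotensin receptor gene Ntsr2 at 0.05 (SE 0.057).

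**Figure D2:**
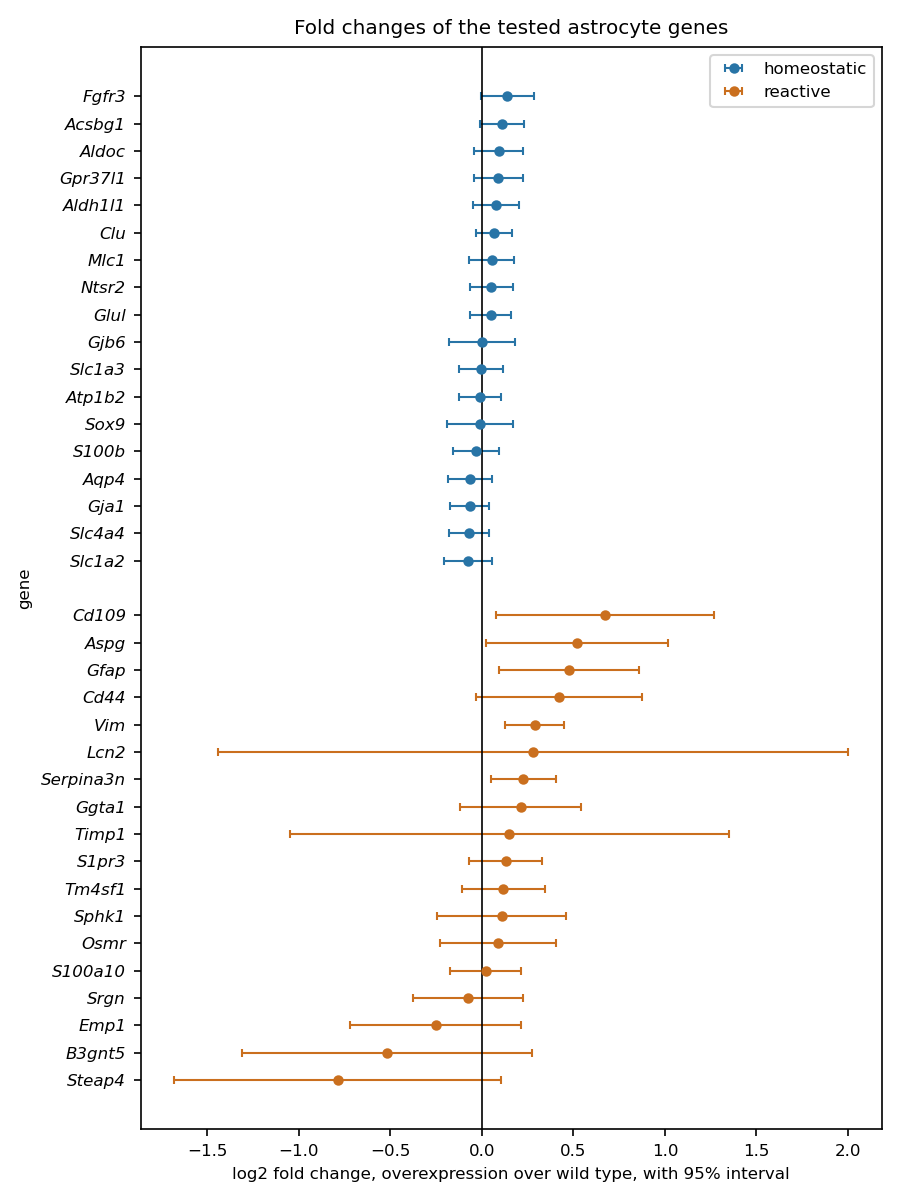
Log2 fold change of overexpression over wild type for the 36 members tested, with 95% intervals, homeostatic genes above and reactive genes below. The homeostatic genes sit between -0.08 and 0.14 with narrow intervals, while the reactive genes range between -0.79 and 0.67 and the intervals of Cd109, Aspg, Gfap, Vim and Serpina3n lie above 0, although no gene passed after adjustment over all genes.

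The reactive genes were more often at higher levels in the libraries labelled overexpression, but none passed over all genes. Of 19 genes, 18 passed the filter on low counts, Ptx3 being left out. With edgeR 0 of the 18 passed an adjusted p under 0.05, and with DESeq2 and limma-voom 0 passed as well. At an unadjusted p under 0.05 there were 5, all higher (Gfap, Vim, Serpina3n, Aspg and Cd109), where 5.24% of all genes tested were higher at that p and 5.43% lower. The median log2 fold change of the 18 was 0.14, with 14 above 0, beside 50.5% of all genes above 0. It was 0.083 without wild-type replicate 2. Every library labelled overexpression exceeded every wild-type library for 2 of the genes, Vim and Serpina3n, and this was so for 2.82% of all genes tested. The members were chosen with earlier results of these libraries known, so these counts describe the genes and are no test of the set. Effects of injection or virus, if wild-type mice had neither, cannot be told apart from those of Ino80e in these values.

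Gfap (ENSMUSG00000020932, chromosome 11 at 102887336 to 102900912, minus strand, GRCm38) encodes the glial fibrillary acidic protein of the astrocyte cytoskeleton. It had 174, 221, 153 and 213 CPM in overexpression replicates 1 to 4, against 124, 117, 142 and 163 CPM in wild-type replicates 1 to 4. Overexpression replicates 2 and 4 were the highest, and the groups overlapped because wild-type replicate 4 exceeded overexpression replicate 3. Gfap averaged 190.3 ± 31.9 CPM in the libraries labelled overexpression and 137 ± 20.7 CPM in wild type (SD, n = 4 each). The difference was 0.48 on the log2 scale (SE 0.16, 95% interval 0.10 to 0.86) and did not pass (edgeR adjusted p = 0.40). The overlapping libraries, overexpression replicate 3 and wild-type replicate 4, are among the 3 whose choroid plexus markers summed to over 100 CPM. Without those 3 libraries, an alternative chosen after seeing the data that leaves 3 against 2, Gfap passed (log2 0.75, SE 0.087, edgeR adjusted p = 0.00082). The 3 libraries left out are the lowest overexpression library and the 2 highest wild-type libraries for Gfap. Leaving them out therefore had to widen the difference, and this p-value is no support for it. Gfap passed in no other alternative, where the adjusted p lay between 0.157 and 0.999.

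Vim (ENSMUSG00000026728, chromosome 2 at 13573927 to 13582826, plus strand) encodes vimentin, the partner filament protein of reactive astrocytes that vessel cells and fibroblasts also make. It had 50.5, 57.5, 51.2 and 55.5 CPM in overexpression replicates 1 to 4, against 44.7, 36.3, 44.9 and 49.6 CPM in wild-type replicates 1 to 4. The groups did not overlap, though overexpression replicate 1 and wild-type replicate 4 were close. The log2 fold change was 0.29 (SE 0.077, 95% interval 0.13 to 0.45, edgeR adjusted p = 0.31). Vim passed with no filter on low counts (edgeR adjusted p = 0.0071) and with a surrogate variable in the fit (edgeR adjusted p = 0.046), and in none of the other alternatives, whose adjusted p reached 0.63.

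Serpina3n (ENSMUSG00000021091, chromosome 12 at 104406729 to 104414329, plus strand) encodes a secreted serine protease inhibitor induced in reactive astrocytes. It had 19.6, 19.99, 17.5 and 16.9 CPM in overexpression replicates 1 to 4, against 15.6, 16.4, 15.9 and 15.3 CPM in wild-type replicates 1 to 4. The groups did not overlap, and replicates 1 and 2 of the overexpression label were the highest. The log2 fold change was 0.23 (SE 0.086, 95% interval 0.05 to 0.40, edgeR adjusted p = 0.37), and 0.12 without overexpression replicates 1 and 2. Other genes of the mouse Serpina3 cluster are near-identical to it, so its counts are uncertain.

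**Figure D3:**
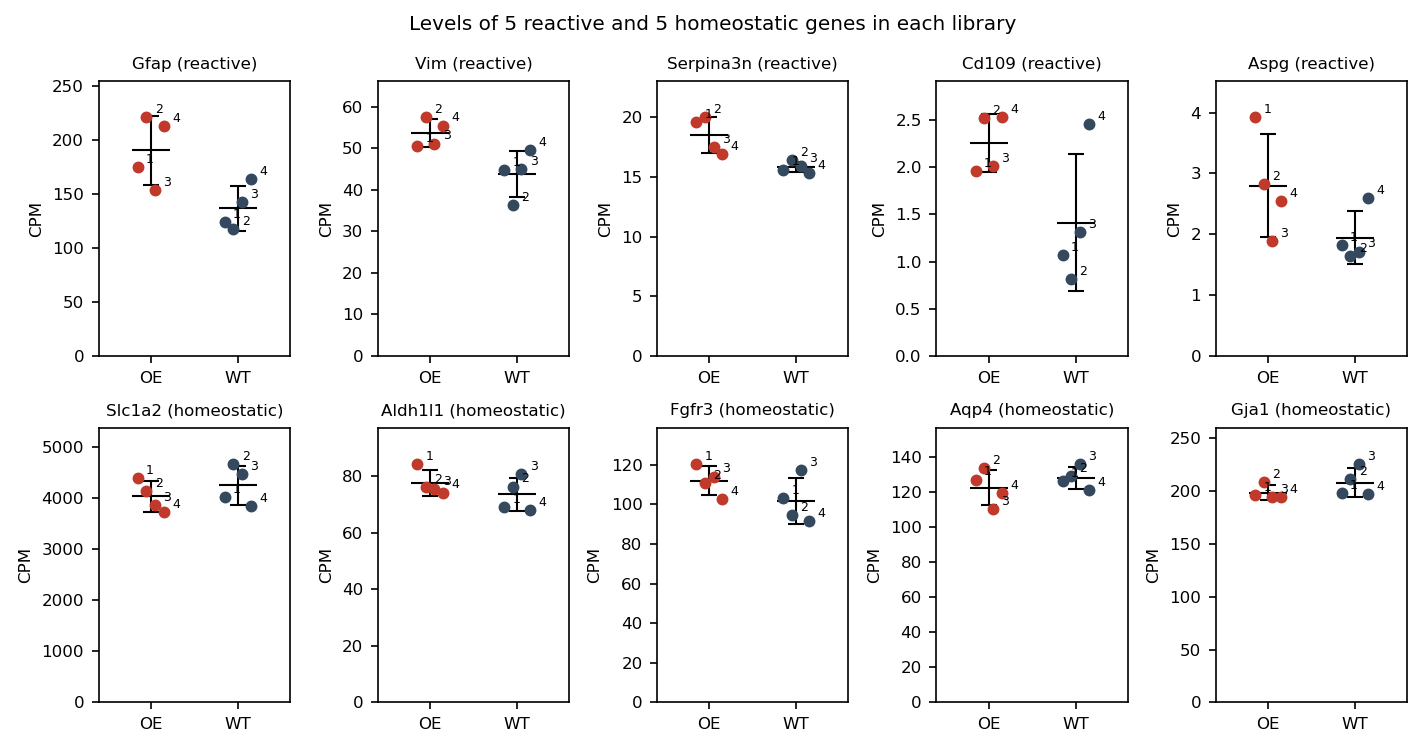
Level in CPM of 5 reactive genes (top row) and 5 homeostatic genes (bottom row) in every library, with the libraries labelled overexpression left and wild type right. Points are libraries numbered by replicate, horizontal lines are means and bars are SD over 4 libraries; Vim and Serpina3n do not overlap between the groups, and wild-type replicate 4 is the highest wild-type library for Gfap, Vim, Cd109 and Aspg.

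The 250 bases before the RefSeq start of these genes are shown because Gfap, Vim and Serpina3n are the most abundant of the 5 reactive genes with an unadjusted p under 0.05, beside Slc1a3 as a homeostatic gene. Sequences are RefSeq's, on build GRCm38.p6, 5′ to 3′ on the strand of the gene. The coordinates are chr11:102897201-102897450 on the minus strand for Gfap, chr2:13574061-13574310 on the plus strand for Vim, chr12:104406458-104406707 on the plus strand for Serpina3n and chr15:8710808-8711057 on the minus strand for Slc1a3. Capitals mark, on either strand, the STAT motif with the letters TTCNNNGAA, the AP-1 motif with the letters TGANTCA, the core of the nuclear factor I site with the letters TTGGC, and the core promoter motif of the TATA type with the letters TATAAA.
Gfap: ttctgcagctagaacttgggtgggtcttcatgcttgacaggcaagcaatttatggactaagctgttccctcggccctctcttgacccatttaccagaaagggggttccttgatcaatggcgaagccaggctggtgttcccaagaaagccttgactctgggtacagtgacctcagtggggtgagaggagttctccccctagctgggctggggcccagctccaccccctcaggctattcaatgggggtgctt
Vim: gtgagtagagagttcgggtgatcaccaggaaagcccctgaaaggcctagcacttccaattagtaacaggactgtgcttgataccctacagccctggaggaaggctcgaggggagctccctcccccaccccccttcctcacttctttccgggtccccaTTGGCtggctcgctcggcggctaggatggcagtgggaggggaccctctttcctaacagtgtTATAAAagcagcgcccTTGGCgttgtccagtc
Serpina3n: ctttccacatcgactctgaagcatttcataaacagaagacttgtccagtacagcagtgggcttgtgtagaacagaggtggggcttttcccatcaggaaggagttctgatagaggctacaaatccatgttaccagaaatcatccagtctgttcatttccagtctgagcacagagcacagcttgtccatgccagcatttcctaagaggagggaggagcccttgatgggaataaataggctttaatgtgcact
Slc1a3: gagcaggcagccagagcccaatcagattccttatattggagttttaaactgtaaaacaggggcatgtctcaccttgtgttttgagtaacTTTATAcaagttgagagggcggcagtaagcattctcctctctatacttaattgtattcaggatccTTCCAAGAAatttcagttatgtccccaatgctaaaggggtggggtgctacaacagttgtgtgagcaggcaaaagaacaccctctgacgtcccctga

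STAT3 is known to drive Gfap in reactive astrocytes, and nuclear factor I and AP-1 also act on astrocyte genes. Gfap and Serpina3n held none of the 4 motifs in these windows. Vim held TATAAA starting 32 bases before the RefSeq start and TTGGC at 93 and 16 bases before it, and Slc1a3 held the STAT letters 96 bases before it and TATAAA on the opposite strand 161 bases before it, with no overlap between motifs. Of the 37 genes, 31 had an entry, and the first listed window of each was searched. The STAT letters were in 2 of 17 reactive genes (11.8%, Steap4 and Emp1) and 3 of 14 homeostatic genes (21.4%, Acsbg1, Ntsr2 and Slc1a3), beside 7.02% of 32851 windows of the same length. TGANTCA was in 5.88% of reactive and 7.14% of homeostatic genes, beside 6.75% of all windows, TTGGC in 41.2% and 57.1%, beside 41.5%, and TATAAA in 29.4% and 7.14%, beside 12.4%. Slc1a3 was the only 1 of the 14 homeostatic genes with TATAAA and among the 3 with the STAT letters, so its window does not stand for the homeostatic set. A match of letters is a description, and an absence holds for these windows only.

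The remaining 2 reactive genes with an unadjusted p under 0.05 were at low levels. Cd109, a surface protein that binds transforming growth factor beta, had 1.96, 2.52, 2.02 and 2.53 CPM in overexpression replicates 1 to 4, against 1.07, 0.812, 1.31 and 2.46 CPM in wild-type replicates 1 to 4. Wild-type replicate 4 lay among the libraries labelled overexpression, and the log2 fold change of 0.67 (SE 0.29, edgeR adjusted p = 0.41) was 1.08 without that library and 1.32 without the libraries rich in choroid plexus markers. The libraries left out hold the highest wild-type values of Cd109, so the wider difference followed from the choice. Aspg, an asparaginase, had 3.92, 2.83, 1.88 and 2.55 CPM in overexpression replicates 1 to 4, against 1.83, 1.64, 1.71 and 2.59 CPM in wild-type replicates 1 to 4. Its log2 fold change of 0.52 (SE 0.24, edgeR adjusted p = 0.45) was 0.31 without overexpression replicate 1, the highest library. It was 0.19 without overexpression replicates 1 and 2, and 0.84 without the libraries rich in choroid plexus markers. That last choice drops the highest wild-type and the lowest overexpression value of Aspg, so it too had to widen the difference.

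Among receptors and surface proteins, the hyaluronan receptor gene Cd44 was high in replicates 1 and 2 of the overexpression label. It had 4.54, 3.74, 2.58 and 2.37 CPM in overexpression replicates 1 to 4, against 2.38, 2.95, 2.41 and 2.14 CPM in wild-type replicates 1 to 4 (log2 0.42, SE 0.22, edgeR adjusted p = 0.50). Without overexpression replicates 1 and 2 its log2 fold change was 0.0055. Osmr, the oncostatin M receptor, stood at log2 0.09 (SE 0.15), the sphingosine-1-phosphate receptor gene S1pr3 at 0.13 (SE 0.097) and the tetraspanin-like gene Tm4sf1 at 0.12 (SE 0.11). Emp1, an epithelial membrane protein, stood at -0.25 (SE 0.23). S1pr3 had 14.3, 14.2, 13.5 and 14.4 CPM in overexpression replicates 1 to 4, against 10.9, 13.0, 13.7 and 13.9 CPM in wild-type replicates 1 to 4, and the groups overlapped.

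Steap4, a metalloreductase, ran the other way, with 0.385, 0.950, 0.595 and 0.395 CPM in overexpression replicates 1 to 4, against 0.668, 0.598, 0.803 and 1.94 CPM in wild-type replicates 1 to 4 (log2 -0.79, SE 0.43, edgeR adjusted p = 0.52). Wild-type replicate 4 alone was far above the rest, and it also held the highest choroid plexus markers. The log2 fold change was -0.25 without that library and -0.13 without the libraries rich in choroid plexus markers.

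The enzyme, granule and calcium-binding genes other than Aspg had no unadjusted p under 0.05. Ggta1, a galactosyltransferase, stood at log2 0.21 (SE 0.16), at 0.077 without wild-type replicate 2 and at 0.48 without the libraries rich in choroid plexus markers. Those libraries hold its highest wild-type values and its lowest overexpression value, so leaving them out had to raise the log2 fold change of Ggta1. The sphingosine kinase gene Sphk1 stood at 0.11 (SE 0.17). S100a10, a partner of annexin A2, had 13.2, 13.8, 12.9 and 12.4 CPM in overexpression replicates 1 to 4, against 12.9, 14.1, 11.9 and 12.6 CPM in wild-type replicates 1 to 4 (log2 0.021, SE 0.094). Srgn, a proteoglycan core protein made by blood and vessel cells, stood at -0.08 (SE 0.14). B3gnt5, a glycosyltransferase, stood at -0.52 (SE 0.38) with overlap, and at -0.19 without wild-type replicate 2, its highest library. For Sphk1, Srgn, Osmr, S1pr3, Tm4sf1 and Emp1, leaving out a single library also moved the log2 value by over 1.5 times. The exons of S1pr3 and Sphk1 also overlap those of other annotated genes, with the same uncertainty.

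Genes that mark strong astrocyte reactivity were close to absent in both groups. Lcn2, which encodes the secreted iron-siderophore binder lipocalin 2, had 1, 10, 16 and 8 counts in overexpression replicates 1 to 4, against 12, 0, 2 and 12 counts in wild-type replicates 1 to 4. Timp1, an inhibitor of matrix metalloproteinases, had 17, 27, 24 and 11 counts in overexpression replicates 1 to 4, against 32, 4, 9 and 20 counts in wild-type replicates 1 to 4. Their 95% intervals of the log2 fold change were wide, at -1.44 to 2.002 for Lcn2 and -1.05 to 1.35 for Timp1. Ptx3, a pentraxin, had 30, 4, 8 and 10 counts in overexpression replicates 1 to 4, against 4, 6, 6 and 8 counts in wild-type replicates 1 to 4, and did not enter the test. A difference in these 3 genes was not detectable at this depth unless it was large. Over all genes, 67.3% of the values between 1 and 20 were even, against 49.9% of those between 1000 and 5000, and 87.5% of the 48 member values between 1 and 100 were even. Whether both reads of a fragment were counted is not stated, so the low counts may exceed the number of fragments, and no counting interval is given for them.

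**Figure D4:**
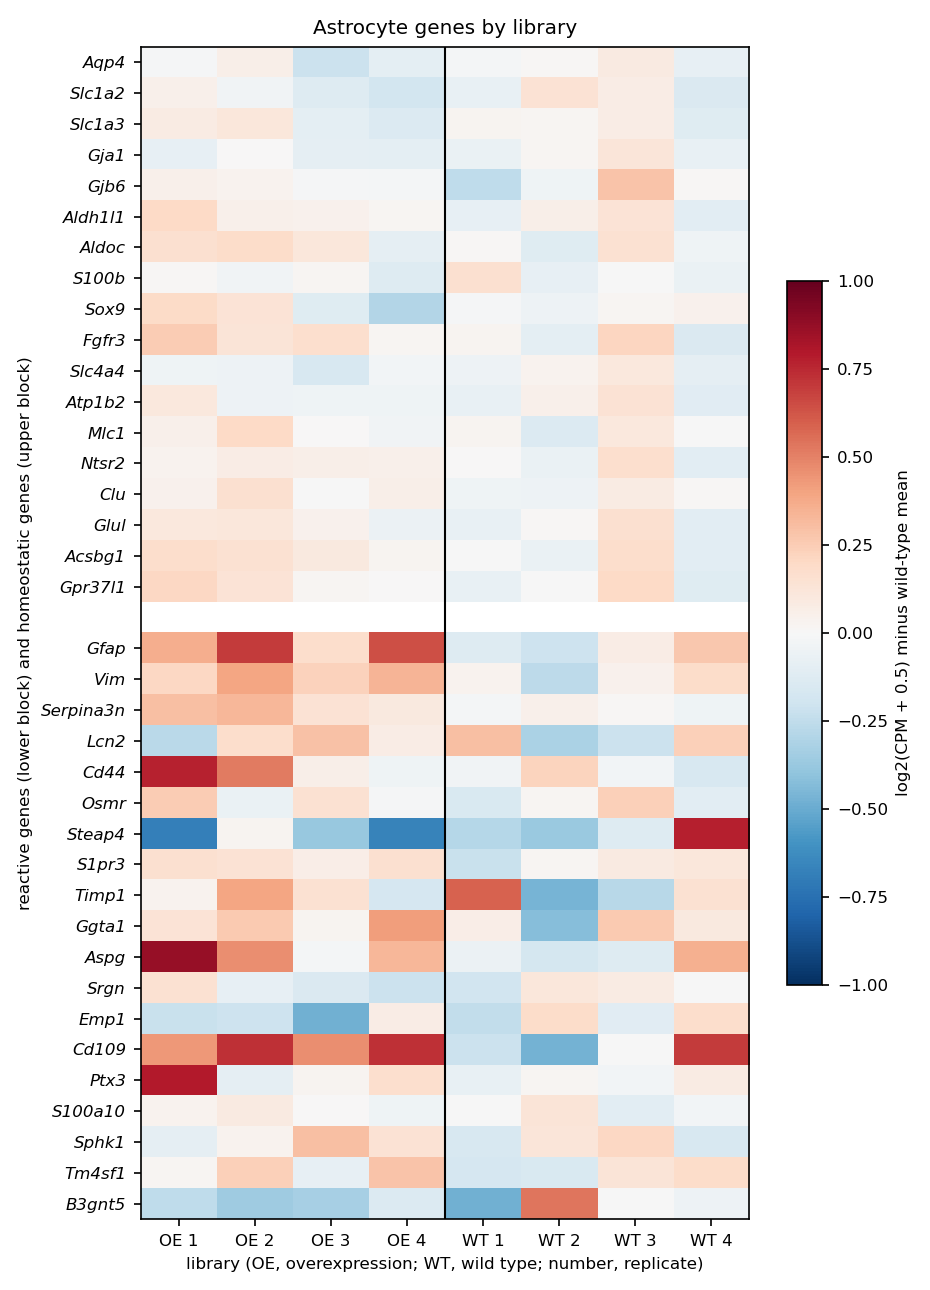
Difference of log2(CPM + 0.5) from the wild-type mean for each of the 37 genes (rows, homeostatic above and reactive below) in each library (columns, overexpression left and wild type right). The homeostatic block stays near 0 in all 8 libraries, while Gfap, Vim and Cd109 are above the wild-type mean in each library labelled overexpression. Wild-type replicate 4 is above that mean for all 3 genes, replicate 3 for Gfap and Vim, and replicate 1 for Vim.

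The libraries differed among themselves in both sets. The mean shift from the wild-type mean, on the log2(CPM + 0.5) scale over the 19 reactive genes, was 0.16, 0.20, 0.035 and 0.12 in overexpression replicates 1 to 4, against -0.076, -0.076, 0.0051 and 0.15 in wild-type replicates 1 to 4. Wild-type replicate 4 lay within the range of the libraries labelled overexpression. Over the 18 homeostatic genes the mean shift was 0.088, 0.078, -0.017 and -0.058 in overexpression replicates 1 to 4, against -0.033, -0.020, 0.13 and -0.075 in wild-type replicates 1 to 4. Wild-type replicate 3 held the highest value of 8 of the 18 homeostatic genes and wild-type replicate 4 the lowest of 7. Of the 19 reactive genes, 13 had their highest value in a library labelled overexpression and 15 their lowest in a wild-type library. For the 18 homeostatic genes these counts were 8 and 11. The share over all genes was not computed, so the counts are a description only. Ptx3 is among the 13, and Lcn2 and Timp1 among the 15, each at a few counts in its extreme or other libraries. The median coefficient of variation was 12.9% for reactive genes in the libraries labelled overexpression and 15.2% in wild type, against 5.74% and 8.17% for homeostatic genes in the same groups.

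Set against the summed homeostatic genes of the same library, Gfap still averaged higher, with overlap. Per 1000 CPM of that sum it had 16.2, 20.9, 15.5 and 22.4 CPM in overexpression replicates 1 to 4, against 12.6, 11.1, 12.9 and 17.2 CPM in wild-type replicates 1 to 4, a ratio of means of 1.39. Serpina3n had 1.82, 1.89, 1.77 and 1.78 CPM in overexpression replicates 1 to 4, against 1.59, 1.55, 1.45 and 1.62 CPM in wild-type replicates 1 to 4, a ratio of 1.17 with no overlap. Vim overlapped on this scale, with 4.69 to 5.84 CPM in the libraries labelled overexpression and 3.44 to 5.23 CPM in wild type. A ratio of this kind shows unequal change and not which of the genes moved. Slc1a2 and Glul are the largest parts of the homeostatic sum.

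**Figure D5:**
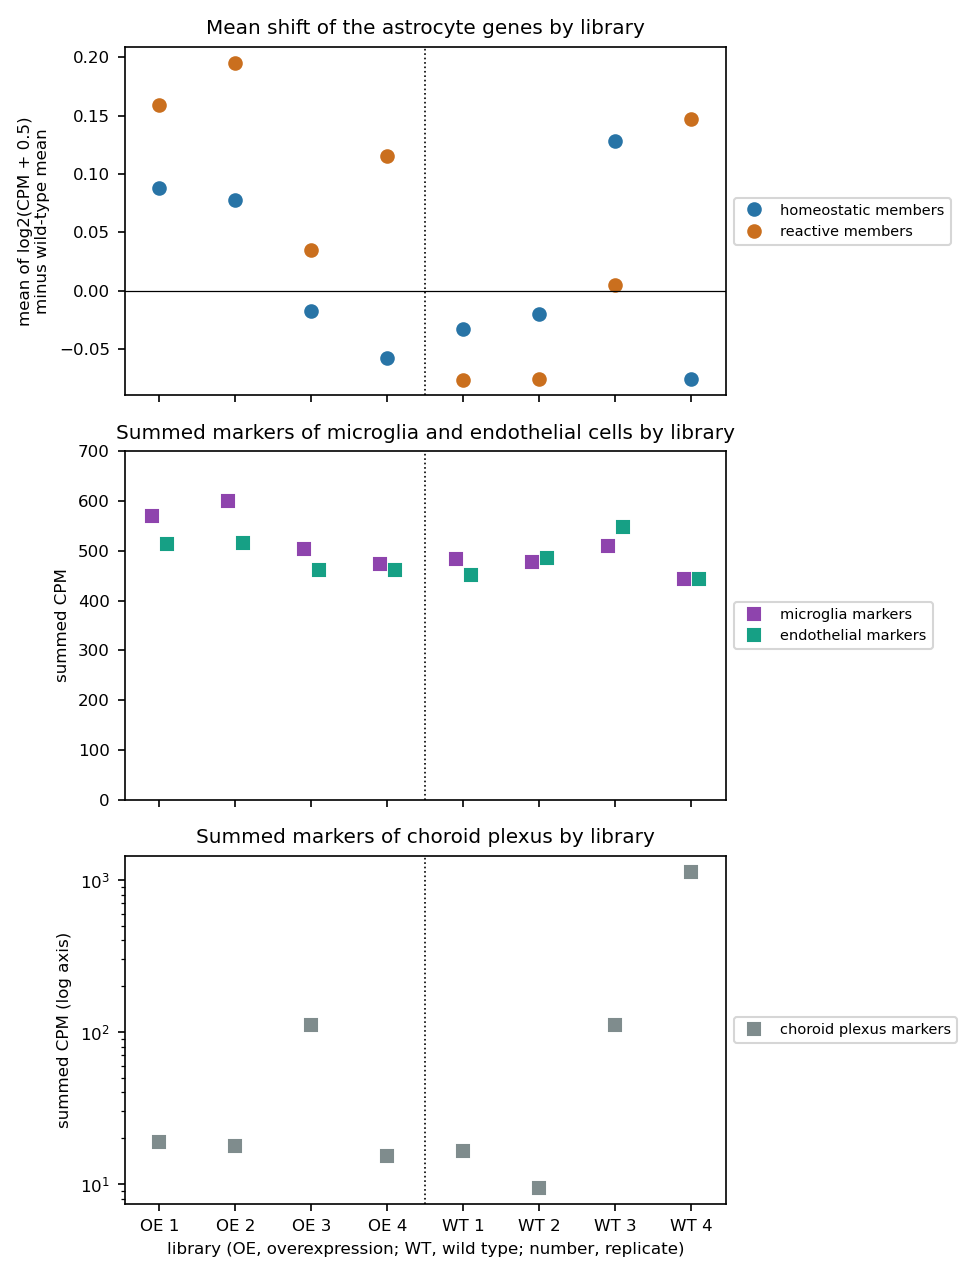
Top, mean shift of the homeostatic (blue) and reactive (orange) genes from the wild-type mean on the log2(CPM + 0.5) scale in each library; middle, summed CPM of microglia (purple) and endothelial (green) markers; bottom, summed CPM of choroid plexus markers on a log axis. The reactive shift is 0.20 in overexpression replicate 2 and 0.15 in wild-type replicate 4, microglia markers are highest in overexpression replicates 1 and 2, and choroid plexus markers reach 1136 CPM in wild-type replicate 4.

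Other cell types that express some of the reactive genes were measured by marker lists. The 15 microglia markers, led by the receptor gene Csf1r, summed to 571, 600.1, 503 and 473 CPM in overexpression replicates 1 to 4, against 483, 478, 510 and 443 CPM in wild-type replicates 1 to 4. Of them 12 had a log2 fold change above 0, with a median of 0.26, where 50.5% of all genes tested were above 0. At an edgeR unadjusted p under 0.05, 8 were higher and none lower, beside 5 of 18 reactive members higher. Of all genes tested, 5.24% were higher and 5.43% lower at that p. No microglia marker passed over all genes with edgeR. Overexpression replicates 1 and 2 were the highest, as for Serpina3n and Cd44. The 12 endothelial markers summed to 461 to 516 CPM in the libraries labelled overexpression and 443 to 548 CPM in wild type, with 6 above 0. The endothelial gene Kdr was lower at an edgeR unadjusted p under 0.05 (log2 -0.26), and no endothelial marker was higher at that p. For the 10 mural cell markers the ranges were 401 to 439.5 CPM in the libraries labelled overexpression and 402 to 483 CPM in wild type. Rgs5, the most abundant mural marker, was lower without overlap at an edgeR unadjusted p under 0.05 (log2 -0.17), and no mural marker was higher at that p. Without overlap, 3.02% of all genes tested were lower. The 8 vascular fibroblast markers summed to 145 to 162 CPM in the libraries labelled overexpression and 132 to 171 CPM in wild type, of which Pdgfra, also a marker of oligodendrocyte precursors, made up 67.4 and 73.4 CPM on average. Of these 8, 6 were above 0 with a median of 0.19, beside 50.5% of all genes above 0. The collagen genes Col1a1 (log2 0.38), Col1a2 (log2 0.26) and Col3a1 (log2 0.35, no overlap) were higher at an edgeR unadjusted p under 0.05, with none lower. Of all genes tested, 5.24% were higher at that p, and 2.82% were higher without overlap. Ependymal markers summed to 9.19 to 23.6 CPM in the libraries labelled overexpression and 10.8 to 26.4 CPM in wild type, oligodendrocyte markers to 4469.5 to 6482 CPM and 5384 to 6486 CPM, and precursor markers to 964 to 1002 CPM and 949 to 1030 CPM. Neuron markers summed to 14263 to 15691 CPM and 13898 to 15858 CPM in the same groups, and red blood cell markers to 108 to 148 CPM and 108 to 232 CPM. No marker of these lists was at 0 in every library, and their part in the reactive values was not tested.

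Further astrocyte genes, from lists written with earlier results of these data known, were measured beside the members. Of 32 other homeostatic genes none passed over all genes with edgeR, and the median log2 fold change was -0.0003. At an edgeR unadjusted p under 0.05, 3 were higher and 3 lower, where 5.24% of all genes tested were higher and 5.43% lower. The lipid carrier gene Apoe averaged 1704 ± 102 CPM in the libraries labelled overexpression and 1546 ± 95.2 CPM in wild type (SD, n = 4 each; log2 0.14, SE 0.051, edgeR adjusted p = 0.35). Axl, a receptor tyrosine kinase shared with microglia, stood at log2 0.21 (SE 0.064) and the phospholyase gene Etnppl at 0.28 (SE 0.093). Pla2g7, a secreted phospholipase, had 87.3, 94.2, 74.1 and 89.0 CPM in overexpression replicates 1 to 4, against 96.1, 103, 101 and 97.9 CPM in wild-type replicates 1 to 4. The groups did not overlap (log2 -0.21, SE 0.062, edgeR adjusted p = 0.32), where 3.02% of all genes tested had every library labelled overexpression below every wild-type library. The brain fatty acid binding protein gene Fabp7 was also lower without overlap (log2 -0.25, SE 0.10, edgeR adjusted p = 0.38).

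Of 28 other reactive genes 25 were tested, and none passed over all genes with edgeR. At an edgeR unadjusted p under 0.05 there were 8 higher and 2 lower, where 5.24% of all genes tested were higher and 5.43% lower. The median log2 fold change was 0.18 with 20 above 0, beside 50.5% of all genes above 0. These genes were listed with earlier results known, so the counts are no test of the list. The complement gene C4b had 58.6, 55.7, 32.8 and 45.4 CPM in overexpression replicates 1 to 4, against 22.2, 19.3, 20.8 and 22.02 CPM in wild-type replicates 1 to 4 (log2 1.19, SE 0.18, edgeR adjusted p = 0.19). Its groups did not overlap, as for 2.82% of all genes tested in the higher direction. Near-identical copies in the mouse complement locus make the count uncertain. The antigen presentation genes H2-D1 (log2 0.39, SE 0.10) and H2-T23 (log2 0.27, SE 0.091) were also among those with the lowest p. So was the galectin gene Lgals3 (log2 1.67, SE 0.56), which was low and overlapped, at 0.364 to 0.909 CPM in the libraries labelled overexpression and 0.0446 to 0.475 CPM in wild type. Ptgs2, the inducible cyclooxygenase that cortical neurons also express, was lower without overlap (log2 -0.48, SE 0.11, edgeR adjusted p = 0.18), as 3.02% of all genes tested were.

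Cytokine and STAT3 signalling genes were measured as a list of 18, of which 13 were tested. Besides JAK and STAT3 signalling it holds Il1b, Il1r1, Tnf, Nfkbia and the complement gene C1qa, which is also among the microglia markers. None passed over all genes with edgeR, and 3 had an unadjusted p under 0.05, all higher, where 5.24% of all genes tested were. Stat3 and Socs3 are 2 of these 3 and are already counted among the 8 higher genes of the other reactive list. Stat3, the transcription factor, had 59.8, 57.9, 56.5 and 61.5 CPM in overexpression replicates 1 to 4, against 51.6, 55.7, 54.3 and 53.9 CPM in wild-type replicates 1 to 4 (log2 0.13, SE 0.054, edgeR adjusted p = 0.40). Socs3, its target and inhibitor, had 2.77, 2.69, 3.29 and 3.5 CPM in overexpression replicates 1 to 4, against 1.78, 2.60, 1.93 and 1.98 CPM in wild-type replicates 1 to 4 (log2 0.56, SE 0.21, edgeR adjusted p = 0.35). Neither gene overlapped between the groups, as for 2.82% of all genes tested in the higher direction. The interleukin 6 receptor gene Il6ra stood at log2 0.28 (SE 0.13), and the cytokine gene Il6 had 0 counts in all 8 libraries.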

How the data were processed

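The deposited table holds raw read counts per Ensembl gene, 1 column per library, matched to samples by the description in the labels. The submitters' processing notes name featureCounts 2.0.3, STAR 2.7.10 and Trimmomatic 0.39, and as builds GRCm38 and mm10, without role or order. The strand setting and annotation used for counting were not given in the sources used here. Symbols, positions, exon lengths and GC content came from GENCODE M21, matched by identifier, with a symbol for 54409 of 54446. Genes were filtered with filterByExpr and libraries scaled with TMM (trimmed mean of M-values). Genes were tested by the quasi-likelihood F test of edgeR 4.0.16 in R 4.3.3, with robust estimation, over 17636 genes with Benjamini-Hochberg adjustment over all of them and a threshold of 0.05. On counts simulated for this comparison over 17374 genes, it called 21 of 50 genes changed 1.25-fold, 36 of 50 at 1.5-fold, 45 of 50 at 2-fold and 50 of 50 at 4-fold, with 11 false calls. The changed genes all averaged at least 1 CPM, and counts were drawn independently for each gene and library. These rates therefore do not cover genes under 1 CPM or shifts that many genes of a library share. Many genes were changed at once, which makes the adjusted threshold easier to reach than in the measured libraries, where 6 genes passed. There C4b did not pass at log2 1.19, so these rates may be too high for this comparison. Alternatives were other scalings and filters, DESeq2 1.42.0, limma-voom (limma 3.58.1), no robust estimation, a replicate block, a surrogate variable (sva 3.50.0), a GC correction (a spline of 5 degrees of freedom per library, as an offset) and leaving out libraries. No 2 libraries were copies, since each pair differed by a chi-square of at least 9.07 per degree of freedom. The members and lists were chosen with earlier results of these data known. Named genes are the members, Ino80e, up to 5 genes of the lowest p from each other astrocyte list and the most abundant markers of other lists. Endothelial, mural and vascular fibroblast markers with an edgeR unadjusted p under 0.05 are named as well.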

Additional observations from a re-analysis of the deposited data

Results flagged for a closer look

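Of 74 groups of 4 libraries, 2 for each of the 37 genes, 3 held a library far from the others, where chance gives about 1 in 20. The gap of that library to its nearest neighbour, as a share of the group's whole range, was 0.869 for Gja1, whose overexpression replicate 2 stood at 209 CPM and the others between 194 and 196 CPM. It was 0.937 for Atp1b2, whose overexpression replicate 1 stood at 491 CPM and the others between 439.5 and 443 CPM. It was 0.848 for Steap4, whose wild-type replicate 4 stood at 1.94 CPM and the others between 0.598 and 0.803 CPM.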

How the results depend on the processing

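None of the 18 homeostatic genes passed under any of the 22 alternatives, and their median log2 fold change lay between -0.024 and 0.092 (the highest without wild-type replicate 3). The reactive median lay between 0.083 (without wild-type replicate 2) and 0.20, and 1 reactive gene passed in each of 3 alternatives: Vim with no low-count filter and with 1 surrogate variable, and Gfap without the libraries rich in choroid plexus markers. That last alternative leaves out the lowest overexpression library and the highest wild-type libraries for Gfap. Over all genes edgeR made 6 calls, against 83 with no low-count filter, 44 with DESeq2, 19 with a surrogate variable, 2 with limma-voom or without robust estimation, 11 without overexpression replicates 1 and 2, 1 without overexpression replicates 2 and 3, 2 without the libraries rich in choroid plexus markers, and 1 to 8 with a single library left out. The replicate numbers did not pair the libraries: the correlation of deviations from the group means lay between -0.071 and 0.088 over the 4 same-numbered pairs. With the replicate number as a block there was 1 call over all genes, 2 with the GC correction too, none of them a member, and the reactive median was 0.18. Ino80e did not pass in any alternative. Changes of sign occurred in 14 members, none of which passed in any alternative. With the GC correction the log2 fold change was 0.027 for Aqp4, 0.044 for Slc1a3, 0.0056 for Srgn, -0.0083 for Clu, 0.019 for Gja1, 0.0008 for Gjb6 and -0.0030 for S100a10. With that correction and the replicate block it was 0.028 for Aqp4, 0.043 for Slc1a3, 0.0038 for Srgn, -0.0099 for Clu, 0.023 for Gja1, 0.012 for Gjb6 and -0.0008 for S100a10. Gjb6 stood at 0.0049 with limma-voom, 0.0022 with no low-count filter, 0.012 with the block and 0.0061 with upper-quartile scaling, where Slc1a3 stood at 0.0007. Without the libraries rich in choroid plexus markers, values were 0.064 for Sox9, 0.0051 for Slc1a3, -0.035 for S100a10, -0.11 for Timp1, -0.057 for Lcn2, 0.18 for Gjb6 and 0.023 for Atp1b2. Without overexpression replicates 1 and 2 they were -0.022 for S100a10, -0.019 for Mlc1, -0.13 for Timp1 and -0.012 for Glul, and without overexpression replicates 2 and 3 0.0025 for Gjb6, 0.032 for Atp1b2, -0.31 for Timp1, -0.0086 for S100a10 and -0.59 for Lcn2. With a single library left out the ranges were -0.049 to 0.041 for Atp1b2, -0.080 to 0.11 for Gjb6, -0.13 to 0.81 for Lcn2, -0.014 to 0.064 for S100a10, -0.065 to 0.021 for S100b, -0.049 to 0.034 for Slc1a3, -0.085 to 0.074 for Sox9 and -0.17 to 0.79 for Timp1. The cause was not tested. Genes under 1 CPM in wild type (Lcn2, Timp1, Ptx3 and B3gnt5) are limited by depth.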
